A study of Mus musculus with 4 samples.

Results

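The genes described here are 10 chemokine ligand genes of the mouse: Cxcl1, Cxcl2, Cxcl3, Cxcl5, Cxcl9, Cxcl10, Cxcl11, Cxcl12, Cxcl16 and Cx3cl1. They were chosen by symbol, and 9 of the 10 matched a row of the deposited TPM table, which lists 22186 genes. Cxcl11, which RefSeq annotates as a transcribed pseudogene, was not analysed here. The study measured RNA from MC38, a mouse colon carcinoma cell line, carrying a stably transfected tetracycline-inducible (TetOn) construct for the chemokine CXCL14. In the doxycycline group, 2 cultures received 1 µg/mL doxycycline, the drug that switches the promoter on, and in the control group 2 cultures of the same line received an equal volume of the solvent PBS. All 4 cultures carried the construct and were harvested 72 h later, and the series text calls the samples of a group biological replicates. The sources do not say whether the line is 1 clone. No library had doxycycline without the construct, so effects of doxycycline itself and of CXCL14 cannot be told apart. Levels are in TPM, the length-scaled share of each transcript in a library that is set to a fixed total.

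Chemokines are small secreted proteins that guide migrating cells through G protein-coupled receptors. CXC ligands that carry a glutamate-leucine-arginine (ELR) motif before the first cysteines draw neutrophils through CXCR2, while CXCL9, CXCL10 and CXCL11 are induced by interferons and draw T cells and natural killer cells through CXCR3. CXCL12 signals through CXCR4 and is taken up by the atypical receptor ACKR3. CXCL16 and CX3CL1 are made as membrane-anchored proteins and can be shed by metalloproteases. Tumour cells of many origins make ELR chemokines, and transcription of these genes is commonly driven by NF-kappaB.

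The genes for the ELR ligands Cxcl5, Cxcl3, Cxcl1 and Cxcl2 lie along 1 stretch of chromosome 5, in that order in RefSeq's annotation. Promoter sequences from RefSeq, on build GRCm38.p6, were available for 7 of the 10 ligand genes. The 110 bases before the start of Cxcl1, Cxcl2 and Cxcl3 are shown because each of these neighbours holds GGGAATTTCCC, while their transcripts stood at very different levels. They are written 5′ to 3′ on the plus strand, and capitals mark matches to NF-kappaB motifs (GGG, any 2 bases and TTTCC, or GGGAA, any 3 bases and CC, on either strand, some of which overlap) or to a TATA box (TATAAA).
Cxcl1, chr5:90891135-90891244, plus strand: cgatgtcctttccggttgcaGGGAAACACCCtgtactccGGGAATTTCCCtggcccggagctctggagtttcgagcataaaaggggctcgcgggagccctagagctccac
Cxcl2, chr5:90903789-90903898, plus strand: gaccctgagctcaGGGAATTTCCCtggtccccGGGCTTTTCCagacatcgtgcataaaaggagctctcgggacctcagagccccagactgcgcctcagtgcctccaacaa
Cxcl3, chr5:90785991-90786100, plus strand: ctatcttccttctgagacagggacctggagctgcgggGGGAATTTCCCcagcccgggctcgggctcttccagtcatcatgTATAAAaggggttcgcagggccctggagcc
Counted from the start of the gene, the first of these motifs matched the plus strand at -71 to -62 in Cxcl1, at -97 to -88 and -78 to -69 in Cxcl2, and at -73 to -64 in Cxcl3. Of 32544 distinct promoter sequences in the table, 1.4% held that motif in the 250 bases before the start, and 5.74% held either NF-kappaB motif. The Cxcl10 promoter is shown whole because it differs in its motifs.
Cxcl10, chr5:92348890-92349139, minus strand: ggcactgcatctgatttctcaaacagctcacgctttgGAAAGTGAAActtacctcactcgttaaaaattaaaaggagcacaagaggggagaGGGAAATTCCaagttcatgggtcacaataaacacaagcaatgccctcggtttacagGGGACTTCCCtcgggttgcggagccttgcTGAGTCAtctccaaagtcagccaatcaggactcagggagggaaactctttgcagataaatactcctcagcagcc
Here the capitals mark, from left to right, an interferon response motif (GAAA, any 2 bases and GAAA, in 2.98% of promoters), a pair of matches to the second NF-kappaB motif on opposite strands, and an AP-1 motif (TGA, any base and TCA, in 6.73%). No NF-kappaB motif of these letters lay in the same window of Cx3cl1. These are matches of letters in a reference, and binding was not measured.

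Cxcl14, the gene the construct was built to express, checked the labels. It stood at 385 and 391 TPM in the doxycycline libraries, against 27.3 and 29.2 TPM in the controls. The sources do not state the species of the CXCL14 sequence in the construct, so reads of the construct and of the cells' own gene cannot be told apart in these values. The ligand genes studied here moved the other way as a sum. The 9 ligand genes summed to 396 and 356 TPM in the doxycycline libraries, against 2617 and 2971 TPM in the controls, so the mean sum after doxycycline was 13.5% of the control mean. Cxcl14 alone equalled 0.972 and 1.10 times that sum in the doxycycline libraries, against 0.0104 and 0.00981 times in the controls. Of the 9 genes, 5 had a mean of at least 1 TPM and were tested with limma on log2(TPM + 1). All 5 fell at an adjusted p under 0.05 and 0 rose, in a comparison in which 35.4% of the 11359 genes tested were called lower and 29.0% higher. The median log2 change was -5.11 over these 5 and -0.04 over all genes tested. In each of the 5, both doxycycline values lay below both control values, as they did in 45.0% of all genes tested. The same held for Cxcl2 and Cxcl9 among the 4 genes that were not tested. The 45.0% does not cover such low genes, and no share was taken over genes below 1 TPM. Each of the 5 was above 1 TPM in all 4 libraries, so none entered the test through its control values alone. In RNA of whole cultures, fewer cells that make a transcript and less of it per cell cannot be told apart.

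**Figure D1:**
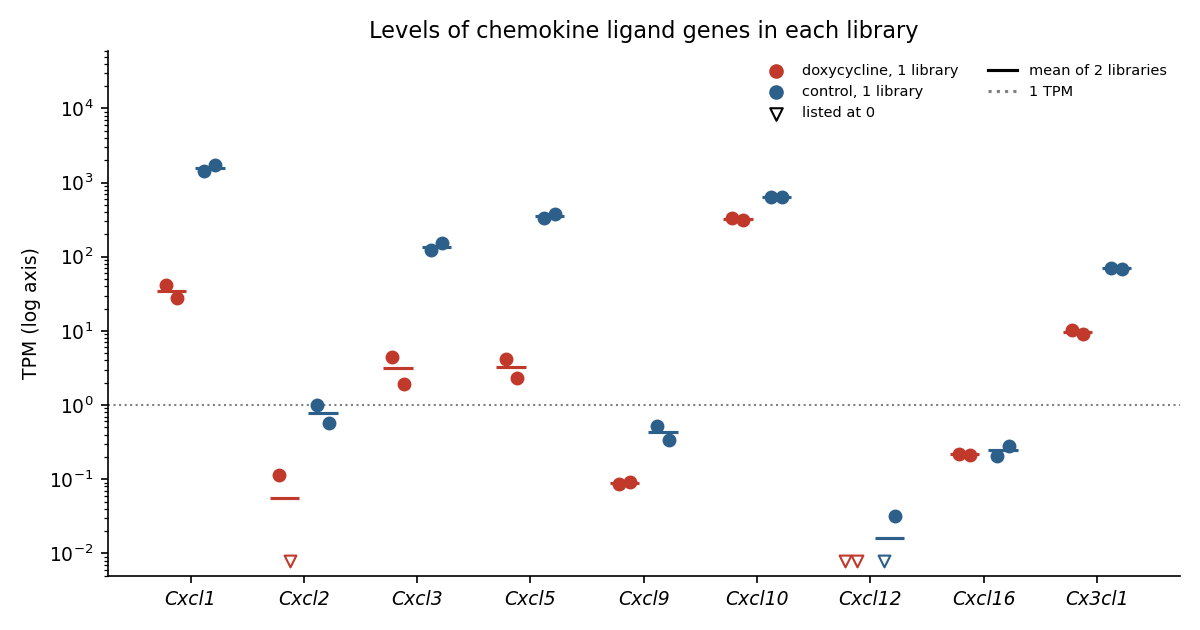
Levels of the 9 ligand genes in TPM on a log axis, with 1 point per library, doxycycline on the left of each pair and control on the right, and bars at the mean of 2 libraries. Triangles mark libraries in which a gene was listed at 0, and the dotted line is at 1 TPM. The doxycycline and control points do not overlap for Cxcl1, Cxcl2, Cxcl3, Cxcl5, Cxcl9, Cxcl10 and Cx3cl1, and they overlap for Cxcl12 and Cxcl16. Both doxycycline values lay below both control values in 45.0% of all genes tested, and no share was taken over genes below 1 TPM.

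Among the ELR ligands, Cxcl1, which recruits neutrophils through CXCR2, was the most abundant of the 9 ligand genes in the controls. Cxcl1 stood at 41.0 and 28.1 TPM in the doxycycline libraries, against 1455 and 1739 TPM in the controls. In rank among all listed genes it was at place 4990 and 6214 after doxycycline, against place 48 and 37 in the controls. The groups lay far apart, at 34.5 ± 9.15 TPM after doxycycline and 1597 ± 201 TPM in the controls (SD, n = 2 each), a level 46.3-fold higher in controls. On the log2(TPM + 1) scale the difference was -5.51 with SE 0.15 (95% interval -5.85 to -5.17, limma adjusted p = 1.28e-08).

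Cxcl5, also known as LIX, had the largest log2 difference of the 5 ligand genes tested. It stood at 4.12 and 2.34 TPM in the doxycycline libraries, against 332 and 378 TPM in the controls. Its mean of 3.23 TPM after doxycycline was 0.911% of the control mean, and its log2 difference of -6.42 (95% interval -6.80 to -6.05, limma adjusted p = 9.76e-09) was the second largest fall of all genes tested. Cxcl3, another CXCR2 ligand, had 4.43 and 1.93 TPM in the doxycycline libraries, against 121 and 153 TPM in the controls. Its log2 difference was -5.11 (95% interval -5.64 to -4.57, limma adjusted p = 2.39e-07), the eighth largest fall. Within the doxycycline group, replicate 1 was above replicate 2 for each of these genes, by 1.46 times for Cxcl1, 1.76 times for Cxcl5 and 2.29 times for Cxcl3. Within the controls, replicate 2 was above replicate 1, by 1.20 times for Cxcl1, 1.14 times for Cxcl5 and 1.26 times for Cxcl3. The spread within groups was thus small beside the difference between them, and larger, as a ratio, in the low doxycycline values.

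Cxcl2, also known as MIP-2 and made strongly by activated macrophages, was close to absent beside its neighbours. It was listed at 0.113 and 0 TPM in the doxycycline libraries, against 0.991 and 0.568 TPM in the controls. Its mean lay below the 1 TPM needed for the test. Without that filter it was called lower (log2 difference -0.74 on the log2(TPM + 1) scale, limma adjusted p = 0.0123), as were 25.2% of the 16252 genes then tested. In the controls Cxcl3 thus stood more than 100 TPM above Cxcl2, and the promoters of both hold GGGAATTTCCC, as shown in capitals above. Transcripts of Cxcl2 and Cxcl3 in GENCODE M21 align at 90.0% identity over 561 bases, with a stretch of 116 bases at 98.3% identity. The sources do not state how the quantification divided reads in that stretch, and the split between these 2 genes is uncertain. The longest alignment between Cxcl1 and Cxcl2 had 80.5% identity over 128 bases.

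Cxcl10, an interferon-inducible ligand of CXCR3, had the smallest difference of the 5 ligand genes tested. Cxcl10 stood at 336 and 314 TPM in the doxycycline libraries, against 635 and 631 TPM in the controls. The doxycycline mean was 51.3% of the control mean, and the log2 difference was -0.96 (SE 0.06, 95% interval -1.10 to -0.82, limma adjusted p = 1.59e-06). This interval does not reach those of Cxcl1, Cxcl3, Cxcl5 or Cx3cl1, although differences between genes were not tested. In GENCODE M21 a transcript of the neighbour Art3 shares 133 bases with Cxcl10, and Art3 was at 0.135 TPM or less in every library. Cxcl9, another CXCR3 ligand, was listed at 0.0853 and 0.0914 TPM in the doxycycline libraries, against 0.526 and 0.334 TPM in the controls. Below the filter, it was called lower only when all genes were tested (log2 difference -0.39, limma adjusted p = 0.0174). Of the transcripts of these 2 CXCR3 ligands, almost all were thus Cxcl10.

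The homeostatic ligand Cxcl12, which holds CXCR4-bearing cells in bone marrow and other niches, was listed at 0 in both doxycycline libraries and in control replicate 1, and at 0.0324 TPM in control replicate 2. Cx3cl1 encodes fractalkine, the membrane-anchored ligand of CX3CR1. Cx3cl1 stood at 10.4 and 9.13 TPM in the doxycycline libraries, against 71.5 and 68.0 TPM in the controls. It fell to 14.0% of the control mean, with a log2 difference of -2.72 (SE 0.09, 95% interval -2.91 to -2.53, limma adjusted p = 3.17e-08). Cxcl16, the other membrane-anchored ligand, which binds CXCR6, was listed at 0.221 and 0.212 TPM in the doxycycline libraries, against 0.208 and 0.283 TPM in the controls. Its groups overlapped, and without the filter it was not called (log2 difference -0.03, limma adjusted p = 0.672). A transcript of Zmynd15 shares 552 bases with Cxcl16 in GENCODE M21, and Zmynd15 was itself at 0.216 TPM or less, so the low Cxcl16 value carries that ambiguity.

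**Figure D2:**
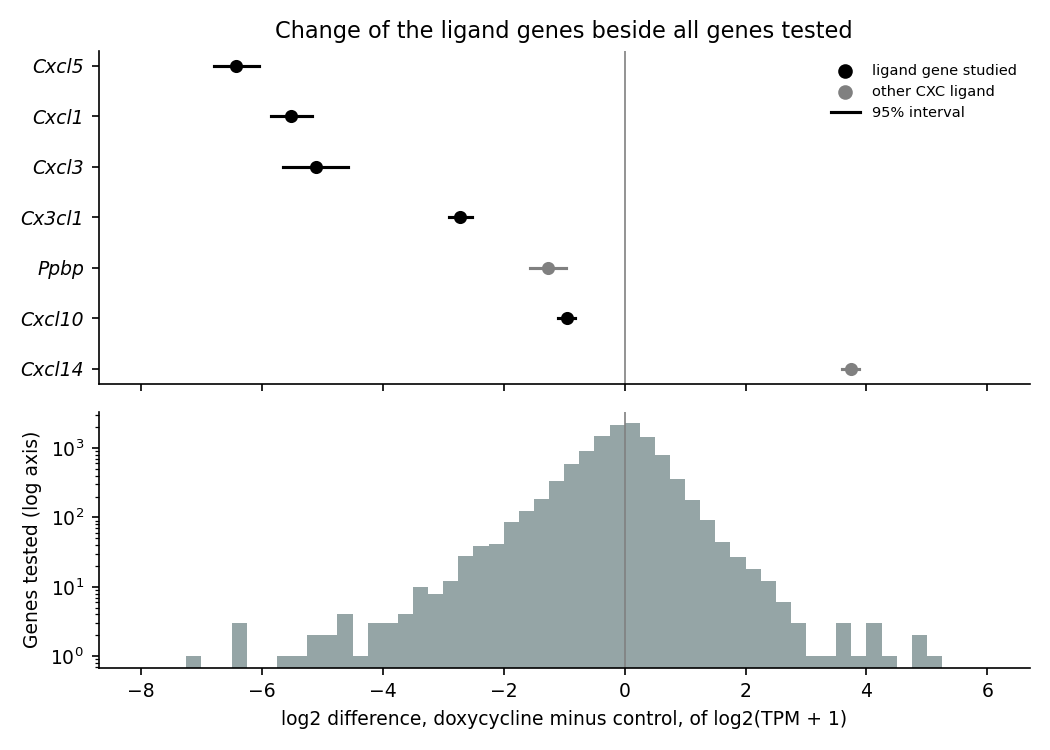
Upper panel: log2 difference (doxycycline minus control) with its 95% interval for the 5 ligand genes tested in black and for Ppbp and Cxcl14 in grey. Lower panel: the same quantity for all 11359 genes tested, as a histogram with a log axis. Cxcl5, Cxcl1 and Cxcl3 sit in the far left tail, Cx3cl1 at -2.72 and Cxcl10 at -0.96, while Cxcl14 is the only ligand to the right of 0.

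The make-up of the ligand transcripts differed between the groups. Cxcl10 made up 84.8% and 88.3% of the summed ligand TPM in the doxycycline libraries, against 24.3% and 21.3% in the controls. Cxcl1, Cxcl2, Cxcl3 and Cxcl5 together made up 12.5% and 9.09% after doxycycline, against 73.0% and 76.4% in the controls. Cxcl1 alone made up 10.3% and 7.89%, against 55.6% and 58.5%. The groups overlapped in the share of Cx3cl1, at 2.62% and 2.57% in the doxycycline libraries, against 2.73% and 2.29% in the controls. Ordered by level, the controls ran Cxcl1, Cxcl10, Cxcl5, Cxcl3, Cx3cl1, Cxcl2, Cxcl9, Cxcl16 and Cxcl12, with no overlap between neighbours. After doxycycline the order was Cxcl10, Cxcl1, Cx3cl1, Cxcl5, Cxcl3, Cxcl16, Cxcl9, Cxcl2 and Cxcl12, in which Cxcl5 and Cxcl3 overlapped, as did Cxcl9 and Cxcl2, and Cxcl2 and Cxcl12 shared a value of 0.

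**Figure D3:**
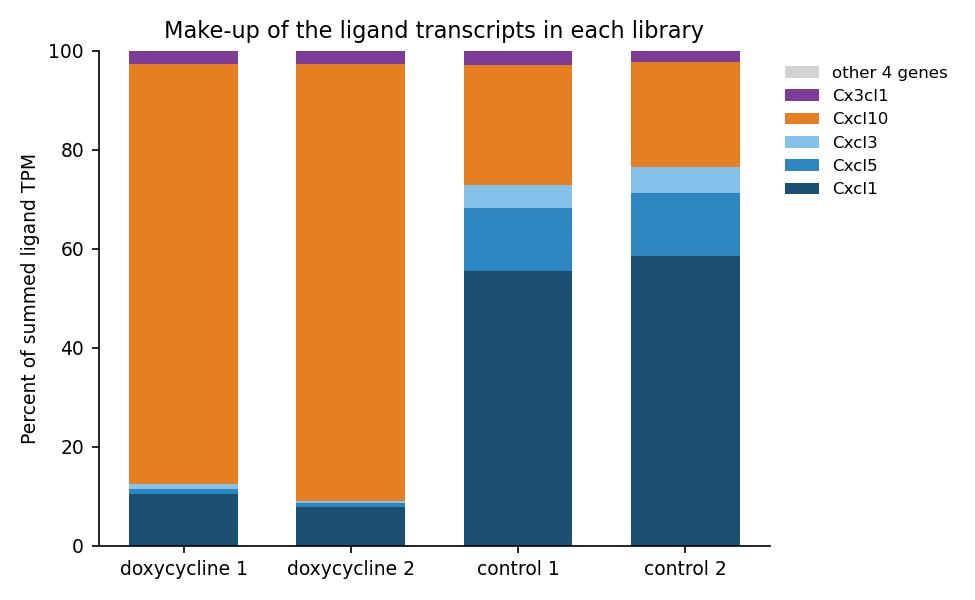
Each bar is 1 library, doxycycline on the left and control on the right, and its parts are the share of each gene in the summed TPM of the 9 ligand genes, in percent. Cxcl10 fills 84.8% and 88.3% of the doxycycline bars, against 24.3% and 21.3% of the control bars, where Cxcl1 is the largest part, and the other 4 genes together are too small to see.

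Apart from Cxcl14, the further members of the family were at 15.6 TPM or less in every library. Of 7 further CXC and XC ligand genes, 3 were tested, of which Cxcl14 rose and Ppbp and Pf4 fell. Among all genes tested, 35.4% were called lower and 29.0% higher. Ppbp, the platelet basic protein gene, lies between Cxcl5 and Pf4. It stood at 6.25 and 4.74 TPM in the doxycycline libraries, against 13.5 and 15.6 TPM in the controls. Its log2 difference of -1.27 (limma adjusted p = 3.6e-05) was smaller in size than those of its neighbours Cxcl1, Cxcl3 and Cxcl5. Pf4, platelet factor 4, was at 1.09 and 0.423 TPM after doxycycline, against 1.28 and 2.27 TPM in the controls, and its call (limma adjusted p = 0.0379) was lost without doxycycline replicate 2 (0.203), without control replicate 2 (0.256), under quantile normalization (0.329), and with no filter on low values (0.11, or 0.115 with a pseudocount of 0.1).

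The stretch of chromosome 5 that holds the ELR genes was set beside its flanking genes, from a list fixed for this comparison. Of its 6 flanking genes, 3 were tested and 3 fell, in a comparison in which 35.4% of all genes tested were called lower. Ereg, which encodes the EGF receptor ligand epiregulin, stood at 23.6 and 20.2 TPM in the doxycycline libraries, against 75.1 and 91.6 TPM in the controls (log2 difference -1.88). Mthfd2l, a mitochondrial folate enzyme that directly follows Cxcl2, fell with a log2 difference of -0.78, and Areg, encoding amphiregulin, with -0.83. Around Cxcl9 and Cxcl10, also on chromosome 5, 4 of 7 tested flanking genes rose and 1 fell. These are 57.1% higher and 14.3% lower, beside 29.0% and 35.4% of all genes tested. Differences between these shares were not tested. Nup54, a nucleoporin gene beyond Cxcl11, stood at 119 and 126 TPM in the doxycycline libraries, against 71.3 and 72.1 TPM in the controls (log2 difference 0.76, limma adjusted p = 5.79e-06), and Sdad1, next to Cxcl9, rose likewise (0.75). The 2 others of the list that rose were Naaa and Ppef2 (0.55 and 0.87), and the gene that fell was G3bp2 (-0.34). Uso1, which lies in the same stretch but was not on the list, was called lower (-0.19, limma adjusted p = 0.0253), a call lost without doxycycline replicate 2 (0.188), without control replicate 2 (0.0995), under median-of-ratios scaling (0.121) and without the variance trend (0.0698).

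**Figure D4:**
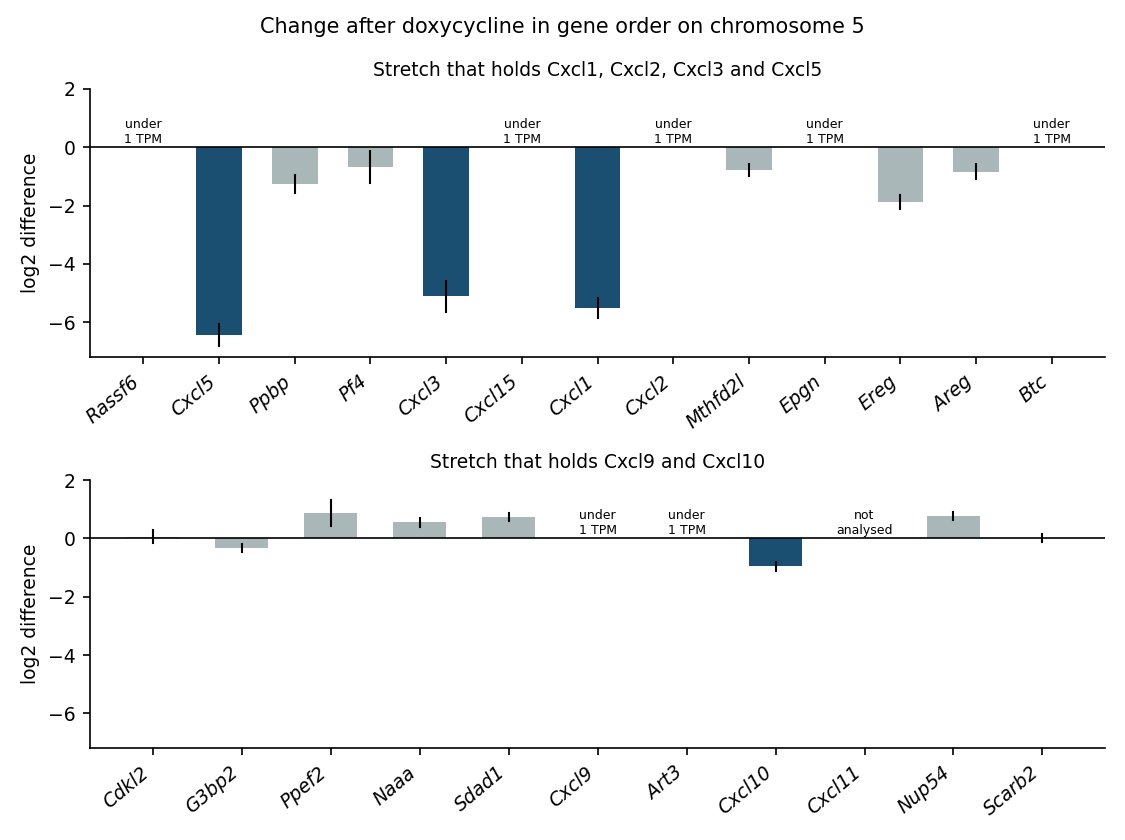
Log2 difference (doxycycline minus control), with its 95% interval, of genes in their order along 2 stretches of chromosome 5, with equal spacing in place of distance. Ligand genes studied are dark, and all other genes are grey, the ligand genes Ppbp and Pf4 among them. Genes below 1 TPM on average carry no bar, and Uso1 and predicted genes are left out of the lower panel. In the upper panel every bar points down, with Cxcl5, Cxcl3 and Cxcl1 below -5, and in the lower panel Cxcl10 points down (-0.96), as does G3bp2 (-0.34), while Ppef2, Naaa, Sdad1 and Nup54 point up.

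The receptors through which these ligands act were largely absent from the cells. Of 13 receptor genes, 11 fell short of a mean of 1 TPM. In every library 7 of them were listed at 0, including Cxcr1 and Cxcr2, the receptors of the ELR ligands, Cxcr3, Cxcr4 and Cx3cr1. Of all 22186 listed genes, 11359 reached that mean and 16252 were above 0 in at least 1 library. Cxcr6, the receptor of CXCL16, was listed at 0.154 and 0.221 TPM in the doxycycline libraries, against 0.143 and 0.148 TPM in the controls. The 2 tested genes fell, where 35.4% of all genes tested were called lower. Ackr3, the scavenging receptor of CXCL12, was at 6.05 and 5.05 TPM after doxycycline, against 28.2 and 28.3 TPM in the controls (log2 difference -2.16, limma adjusted p = 2.81e-07). Ccrl2, an atypical receptor, was at 0.598 and 0.582 TPM after doxycycline, against 1.71 and 1.46 TPM in the controls (log2 difference -0.70, limma adjusted p = 0.00561), a call lost under quantile normalization (0.104).

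Among genes for ligand shedding and cleavage, 7 of 8 tested were lower and 1 was higher, with a median log2 change of -0.60. The share called lower was 87.5%, beside 35.4% of all genes tested, a difference that was not tested. Adam17, the inducible sheddase of CX3CL1, stood at 148 and 146 TPM in the doxycycline libraries, against 311 and 301 TPM in the controls (log2 difference -1.05, limma adjusted p = 5.68e-07). Adam10, which sheds CX3CL1 and CXCL16 constitutively, fell as well (-0.52). Mmp2 and Mmp9, gelatinases that can cleave chemokines, fell (-2.09 and -0.97), as did Rhbdf1 and Rhbdf2, which help ADAM17 mature, and the inhibitor Timp1. Timp3, an inhibitor of ADAM17, stood at 22.2 and 18.5 TPM in the doxycycline libraries, against 9.17 and 8.34 TPM in the controls (log2 difference 1.12, limma adjusted p = 2.14e-05).

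Of 21 tested genes among the inducers and feedback genes of NF-kappaB-dependent chemokine transcription, 12 fell and 6 rose, with a median log2 change of -0.29. These are 57.1% lower and 28.6% higher, beside 35.4% and 29.0% of all genes tested, so the share that rose was close to that of all genes. Cebpd, a C/EBP transcription factor, stood at 9.77 and 8.63 TPM in the doxycycline libraries, against 228 and 236 TPM in the controls (log2 difference -4.52, limma adjusted p = 1.06e-09). Nfkbiz, which encodes the nuclear cofactor IkappaB-zeta, stood at 24.6 and 21.1 TPM in the doxycycline libraries, against 236 and 262 TPM in the controls (-3.39). The feedback inhibitors Tnfaip3 (-1.97) and Nfkbia (-1.92) fell, as did Cebpb (-1.55) and the interleukin-1 receptor gene Il1r1 (-1.36). Among the subunits, Rela rose (0.29), with 152 and 155 TPM in the doxycycline libraries, against 132 and 118 TPM in the controls. Nfkb1 and Rel fell (-0.28 and -0.51), and Nfkb2 and Relb were not called (0.02 and -0.02). Il17ra (0.43), the adaptor Myd88 (0.48) and the inhibitor Nfkbib (1.28) rose, while the TNF receptor gene Tnfrsf1a fell (-0.63). Tnf, Il1b and Il17a were listed at 0 in all 4 libraries.

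Among 8 genes of chemokine mRNA decay and stability, 5 fell and 2 rose (median -0.31), or 62.5% and 25.0%, beside the same 35.4% and 29.0%. Zc3h12a, encoding the endonuclease Regnase-1 that degrades inflammatory mRNAs, stood at 10.3 and 9.66 TPM in the doxycycline libraries, against 73.6 and 69.0 TPM in the controls (log2 difference -2.72). Zfp36, which encodes the decay factor tristetraprolin, and Zfp36l1 also fell (-0.72 and -0.95), and Arid5a, whose product stabilizes inflammatory mRNAs, rose (0.80, limma adjusted p = 6.66e-05). In interferon signalling, upstream of Cxcl9 and Cxcl10, 8 of 14 tested genes fell, 0 rose and 6 were not called (median -0.32). The share called lower was 57.1%, beside 35.4% of all genes tested. The kinase gene Tyk2 fell (-1.79), as did Stat2 (-0.68) and the interferon-gamma receptor genes Ifngr1 and Ifngr2 (-0.53 and -0.61). Irf1 was at 316 and 293 TPM in the doxycycline libraries, against 372 and 323 TPM in the controls, and was not called (-0.19, 95% interval -0.36 to -0.01, limma adjusted p = 0.0599), although it passed in 4 alternatives, the replicate block among them (0.0193). Ifng was listed at 0 in all 4 libraries.

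**Figure D5:**
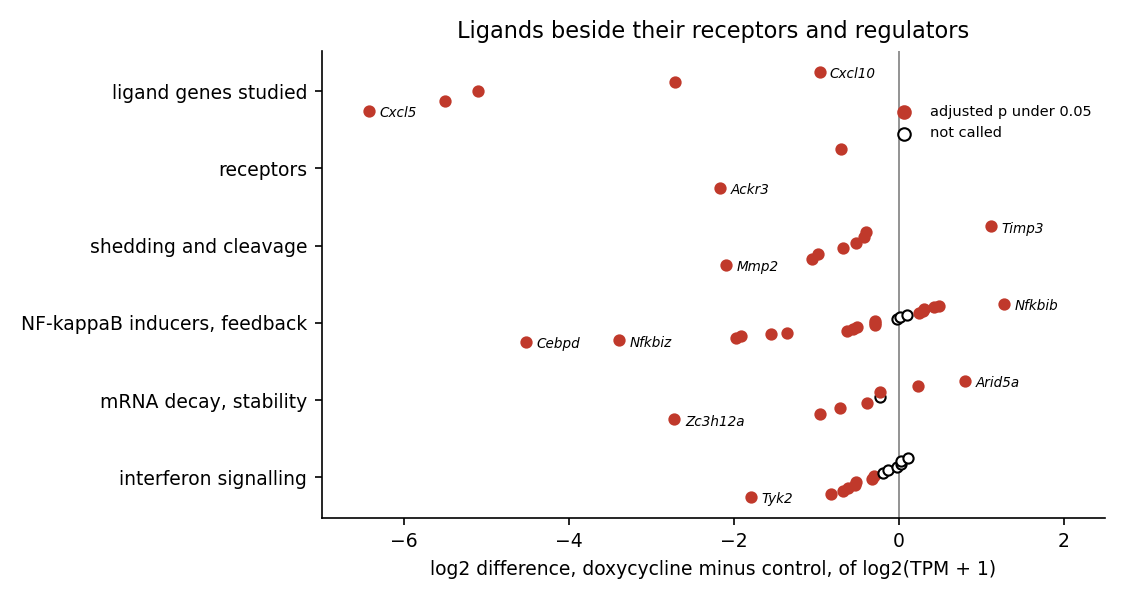
Log2 difference (doxycycline minus control) of every tested gene in 6 lists, with filled points for an adjusted p under 0.05 and open points for genes not called. The ligand genes reach furthest left, and Cebpd, Nfkbiz, Zc3h12a and Ackr3 lead the falls of the other lists, while Timp3, Nfkbib and Arid5a lie to the right of 0.

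The genes nearest to the average profile of Cxcl1, Cxcl2, Cxcl3 and Cxcl5 were sought among the tested genes outside the ligand genes studied. The measure was the Euclidean distance, over the 4 libraries, between mean-centred log2(TPM + 1) and that average. The nearest was Lbp, which encodes the lipopolysaccharide-binding protein (distance 0.139), with 2.63 and 1.57 TPM in the doxycycline libraries, against 70.9 and 71.6 TPM in the controls. Next came Ccn3, a matricellular protein gene (0.282), Cebpd (0.285), the complement gene C3 (0.305) and Trib2, a pseudokinase gene (0.356). The average includes Cxcl2, which was below the filter, and its difference of -4.45 lies between that of Cxcl2 and those of the other 3 ligands, so the genes named match the average and not any 1 of these ligands. With 4 libraries in 2 groups, this measure reflects little beyond the size of the difference.

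Leukocyte and endothelial markers were mostly at low levels, while some fibroblast markers were high. Of 15 leukocyte markers, 12 had a mean below 1 TPM, and Cd3e, Ly6g, Laptm5 and C1qa were listed at 0 in all 4 libraries. Of all 22186 listed genes, 11359 reached a mean of 1 TPM and 16252 were above 0 in at least 1 library. The leukocyte markers summed to 7.91 and 9.82 TPM in the doxycycline libraries, against 38.2 and 38.4 TPM in the controls. Most of the control sum was S100a8, a calcium-binding protein gene of myeloid cells, at 0.431 and 0.710 TPM after doxycycline, against 25.0 and 26.7 TPM in the controls. Of the 3 leukocyte markers tested, 2 fell, where 35.4% of all genes tested were called lower. They were S100a8 (log2 difference -4.10) and Cd68 (-0.54). Lyz2 was not called, at 2.65 and 3.78 TPM in the doxycycline libraries, against 3.76 and 2.99 TPM in the controls. S100a9 was at 0.534 TPM or less. The pan-leukocyte gene Ptprc was at 0.0566 TPM or less. Of 5 endothelial markers, 0 reached a mean of 1 TPM. Fibroblast markers summed to 551 and 514 TPM in the doxycycline libraries, against 3478 and 3670 TPM in the controls, mostly from Dcn and Pdgfra. Dcn stood at 485 and 464 TPM in the doxycycline libraries, against 3075 and 3259 TPM in the controls. Pdgfra was at 34.1 and 26.8 TPM after doxycycline, against 350 and 358 TPM in the controls, and Pdgfrb at 28.3 and 21.6, against 50.2 and 50.7. Of the 4 fibroblast markers tested, these 3 fell, where 35.4% of all genes tested were called lower. The fourth, Col1a1, was not called, at 3.39 and 2.02 TPM in the doxycycline libraries, against 2.43 and 2.14 TPM in the controls. Col1a2 averaged 0.177 TPM after doxycycline and 0.0598 TPM in the controls, and Lum and Fap were at 0.210 TPM or less. The label calls the cells colon cancer cells, and 0 of 9 colon epithelial markers reached a mean of 1 TPM, with Cdh1, Krt19 and Cdx2 listed at 0 in all 4 libraries. The part of these markers in the ligand results was not tested.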

How the data were processed

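The authors deposited a TPM table and an FPKM table, per the file headers, with 1 column per library and no read counts. The submitters' processing notes name genome build mm39, and no aligner, quantifier or annotation is given in the sources used here. No steps of whole reads were visible among low values. Depth is thus unknown, and no counting interval is given. Per library, TPM were 3.08 to 3.14 times FPKM.

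Genes averaging at least 1 TPM were tested on log2(TPM + 1) with limma 3.58.1 in R 4.3.3 (lmFit, then eBayes with trend) for the difference of 2 doxycycline from 2 control libraries, with Benjamini-Hochberg adjustment over all 11359 genes and calls under 0.05. Fold changes on that scale understate changes of low genes. The smallest two-sided p that exact permutation of these libraries allows is 0.33, so calls rest on limma's shared spread, which may be technical. The test was tried on simulated data. No paired fit was the main one.

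The genes and lists were chosen with earlier results of these data known. All list genes were counted, and those named are the ligands, leading list genes and the 5 nearest in pattern. Marker genes, Uso1, Zmynd15, Art3, Rel, Nfkb2 and Relb were named after their values were seen. Shared transcript stretches were sought with blastn 2.17.0 in GENCODE M21 (at least 95% identity over 50 bases, and 80% between ligands). Promoters were read with Python 3.11.15. Reference tables, of an earlier build, served for names, order and sequence only.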

Additional observations from a re-analysis of the deposited data

How the results depend on the processing

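Under 15 alternatives, of which 1 was added after seeing the data (no filter with a pseudocount of 0.1), the 5 tested ligand genes and Cxcl14 kept their direction and their call, with adjusted p of at most 0.00381 (Cxcl3). The log2 difference ranged from -5.78 to -5.24 for Cxcl1, -6.79 to -5.82 for Cxcl5, -5.55 to -4.49 for Cxcl3, -1.02 to -0.89 for Cxcl10 and -2.83 to -2.49 for Cx3cl1. Without a filter, 7 of 9 ligand genes were called lower, with Cxcl2 and Cxcl9 added, beside 4102 of 16252 genes (25.2%). The mean ligand sum after doxycycline was 12.7% to 14.4% of the control mean with 1 library left out, 13.6% in FPKM and 14.1% under median-of-ratios scaling. Among all genes the split of calls moved from 3295 higher and 4017 lower to 3810 and 3549 under median-of-ratios scaling and to 3870 and 3356 under quantile normalization. The replicate block gave 3387 higher and 4114 lower, again with 5 ligand genes lower. The same-numbered libraries did not deviate together (correlation -0.01), and nothing in the labels says the numbers mark a shared day. Of 840 values of named genes under alternatives, 821 kept direction and call. Not included were Rel, Nfkb2, Relb, Cd68, Lyz2, Pdgfrb and, outside the ligand genes studied, named genes below the filter. The 1 that changed direction was Col1a1, called in no alternative, at -0.12 without doxycycline replicate 1 (with 1 library left out, -0.12 to 0.42). With 1 library left in a group, that library is assumed to vary like the other group. What limits the low genes is the unknown depth: levels below 1 TPM may rest on few reads.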

Other observations

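The NF-kappaB letters seen before Cxcl1, Cxcl2 and Cxcl3 were looked up before the starts of all genes with a RefSeq promoter. Of 9145 tested genes with a promoter, 164 held GGG, any 2 bases and TTTCC, of which 44.5% were lower and 25.0% higher after doxycycline, beside 34.9% lower and 29.3% higher over all 9145. Their median log2 difference was -0.12, beside -0.04 over all. Of 630 genes with the second NF-kappaB motif (GGGAA, any 3 bases and CC) 39.7% were lower, and of 724 with either, 39.8%. Genes with a TATAAA motif (39.4% lower), a C/EBP motif (TTGC, any 2 bases and AA; 40.9% lower) or an AP-1 motif (TGA, any base and TCA; 40.8% lower) also had shares above that of all genes. Genes with the interferon response motif (GAAA, any 2 bases and GAAA) had 36.2% lower and 32.4% higher, and genes with TTC, any 3 bases and GAA had 33.0% lower. These shares are descriptions with no test, and the motif sets overlap.

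The ratio of Cxcl1 to Cxcl3 was 9.26 and 14.5 in the doxycycline libraries, against 12.0 and 11.3 in the controls, so the groups overlapped. The ratio of Cxcl1 to Cxcl5 was 9.95 and 12.0 in the doxycycline libraries, against 4.38 and 4.61 in the controls, with no overlap between groups.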
